A study of Mus musculus with 78 samples.

Results

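A set of lysosomal genes and their regulators, 10 of the 55401 genes counted, were followed over 2 h to 72 h of ZFP143 depletion and through retinoic acid (RA) treatment: Gpnmb, Lamp1, Mcoln1, Ctsd, Ctsb, Ctsl, Hexa, Sqstm1, Tfeb and Tfe3. They were listed by name with earlier results of these data known, so that the p-values of no member are free of that choice. Gpnmb was chosen by its measured rise after 72 h of depletion against DMSO, so that its levels against DMSO in the RNA-seq time course are given as a description with no test. All 10 passed the filter on low counts in each of the 3 tables, which left 17870, 13925 and 15915 genes for testing in nascent RNA, the RNA-seq time course and the RA experiment.

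The cells were E14TG2a mouse embryonic stem cells (mESCs), a line derived from a blastocyst, grown in 2i medium, in which both copies of Zfp143 had been fused at the endogenous locus to FKBP12F36V, an HA tag and eGFP. Every group carried this knock-in, controls included, and the cells of a knock-in line descend from single edited clones, so that untagged cells are not among the groups compared. Cells were given DMSO or 500 nM dTAG-V1, a compound that joins the FKBP12F36V domain to an E3 ubiquitin ligase. Transient transcriptome sequencing (TT-seq), which reads RNA made during a short labelling pulse, covered DMSO and 2 h, 6 h and 24 h of dTAG. RNA-seq covered DMSO and 24 h, 48 h and 72 h of dTAG, and a separate RNA-seq experiment covered DMSO for 24 h, dTAG for 24 h, and each of these followed by 24 h of RA with DMSO or dTAG continued. RA was given in another medium, N2B27, and the depleted RA libraries had spent 48 h in dTAG in all. RA, the change of medium and, in dTAG, the second day of depletion cannot be told apart in these groups. Every dTAG time of TT-seq was compared with the same DMSO group, and so was every dTAG time of RNA-seq without RA. No length of culture is given for these DMSO groups, so hours in dTAG and hours in culture cannot be told apart. The share of time in culture in the later changes was not tested.

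Each group held 2 libraries, which the study calls biological replicates, and totals ran from 9721568 to 16532077 counts in TT-seq, from 10261851 to 15316700 in the time course and from 13890761 to 27089033 in the RA experiment. Values per library are CPM (counts-per-million) after TMM scaling, and groups with 2 libraries are said to overlap where their ranges do. The spread between replicates, as the common biological coefficient of variation, was 17.2% in TT-seq, 3.65% in the time course and 5.92% in the RA experiment, so that changes of a given size were resolved least well in nascent RNA. The Zfp143 transcript itself rose in dTAG, from 42.9 and 44.2 CPM in DMSO to 111 and 105 CPM at 72 h, and since dTAG acts on the protein the transcript does not check the depletion.

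Lysosomes are acidic organelles that degrade material from endocytosis and autophagy. The transcription factors TFEB, TFE3 and MITF bind the letters CACGTG, or a longer form of them, in the promoters of many lysosomal and autophagy genes. When nutrients are plentiful, the kinase mTORC1 is recruited to the lysosome by the Ragulator complex and the Rag GTPases and, with folliculin (FLCN) and its partner FNIP1, keeps these factors in the cytoplasm. Their activity is set to a large part by their place in the cell, which RNA does not report. In mESCs, TFE3 in the nucleus is known to hold cells in the pluripotent state. GPNMB is a transmembrane glycoprotein of lysosomes and melanosomes that is known to rise in cells with stressed lysosomes.

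The promoters of 4 members held CACGTG, and these stretches are printed because the letters are those that TFEB and TFE3 read. They were taken from a RefSeq table (GRCm38.p6) of windows from 250 bases before to 50 bases after a gene start, in which 9 members had a window and Ctsb had none. Capitals mark CACGTG, which reads the same on both strands, and each stretch runs 5′ to 3′ on the strand of its gene.
Lamp1, chr8:13159090-13159160, plus strand: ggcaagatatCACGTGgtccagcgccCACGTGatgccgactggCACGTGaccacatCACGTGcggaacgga
Mcoln1, chr8:3500438-3500489, plus strand: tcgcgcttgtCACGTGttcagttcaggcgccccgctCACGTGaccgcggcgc
Ctsd, chr7:142387910-142387935, minus strand: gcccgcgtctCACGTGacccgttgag
Ctsd, chr7:142388057-142388077, minus strand: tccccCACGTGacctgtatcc
Ctsl, chr13:64370741-64370766, minus strand: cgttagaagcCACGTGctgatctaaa
Lamp1 held 4 copies, beginning 61, 45, 28 and 15 bases before the start. Mcoln1 held 2 copies at 71 and 45 bases, Ctsd 2 at 245 and 98 bases, and Ctsl 1 at 236 bases before the start. CACGTG stood in 7.15% of the 32851 windows of the table. The longer TCACGTGA, which contains it, stood in 0.974% of windows and in those of Mcoln1 and Ctsd, and the related CATGTG, searched on both strands, stood in 14.2% of windows and in none of the 9 members' windows. Gpnmb, Hexa, Sqstm1, Tfeb and Tfe3 held none of these letters within 300 bases around the start, which says only that they are not in this window.

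ZFP143 itself occupied 1 of the 10 promoters, that of Tfeb, the gene of a master regulator of lysosomal genes. A gene was counted as bound where a ZFP143 ChIP-seq peak lay around a transcript start, within 2000 bp on the upstream and 1000 bp on the downstream side, and had its centre less than 2000 bp from that start. By this rule 14.9% of the genes tested in the time course were bound. The peak at Tfeb spanned 577 bp on chromosome 17, from 47736647 to 47737223 (mm10), with a fold enrichment over input of 141 against a median of 20.8 over all 3189 peaks, and 26 peaks had a higher one. Its −log10 q was 498. The stretch around its summit, at position 47736960, is printed because it holds part of the ZFP143 binding motif, ACTACA followed after any 2 bases by TCCCAG, in capitals.
Tfeb, chr17:47736932-47737005, plus strand: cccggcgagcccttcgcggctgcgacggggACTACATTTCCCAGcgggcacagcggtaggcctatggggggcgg
The match began 2 bases from the summit and 75 bases before the RefSeq start of Tfeb. These letters, searched on both strands and chosen with the peak known, stood in 1.03% of the promoter windows and in 19.7% of 300-base windows centred on ZFP143 summits.

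The 9 members without a ZFP143 peak at their start had their nearest one between 3.81 kb and 658 kb away, counted from the centre of the peak to the nearest annotated transcript start. Mcoln1 (chromosome 8, 3500457 to 3515232, plus strand) was nearest, and its neighbouring peak lay at a transcript start of Pnpla6. Lamp1 lies on the same chromosome, from 13159161 to 13175338 on the plus strand, and its nearest peak was 115 kb away. Gpnmb occupies chromosome 6 from 49036546 to 49070929 on the plus strand, with its nearest peak 163 kb away. Ctsd (chromosome 7, 142375911 to 142388038, minus strand) and Ctsb (chromosome 14, 63122462 to 63145923, plus strand) had theirs at 327 kb and 243 kb. Ctsl (chromosome 13, 64359337 to 64370890, minus strand) and Sqstm1 (chromosome 11, 50199366 to 50210827, minus strand) had theirs at 22.6 kb and 63.2 kb. Hexa (chromosome 9, 59539540 to 59565109, plus strand) was farthest from a peak, and Tfe3 (chromosome X, 7762560 to 7775202, plus strand) had one 34.1 kb away. Positions are those of GENCODE on mm10. Lamp1, Ctsd, Ctsb, Ctsl, Hexa and Sqstm1 overlap another annotated gene, respectively Grtp1, Gm49369, Fdft1, the antisense Gm47123, Tmem202 and Mrnip, and Ctsl also overlaps the pseudogene Gm49230. Gm49369 and Gm49230 lie on the strand of the member they overlap, so reads in those stretches are uncertain however they were counted. For the others, whether the RNA-seq counts used the strand is not given in the sources used here, so reads in the shared stretches are uncertain too.

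Gpnmb was almost silent in control cells and climbed at every later time point of the RNA-seq time course. Its libraries held 1.37 and 1.21 CPM in DMSO, from 15 and 17 counts, then 2.98 and 3.19 CPM at 24 h, 13.02 and 14.3 CPM at 48 h, and 66.4 and 59.3 CPM at 72 h. None of these 4 groups overlapped another. The ratio of the group mean to that of DMSO was 2.39 at 24 h, 10.6 at 48 h and 48.6 at 72 h. These ratios chose the gene and are no test. The step from 24 h to 48 h was 2.14 ± 0.17 on the log2 scale (SE, adjusted p = 1.51e-08, edgeR). It compares neither the DMSO nor the 72 h libraries, but scaling and spread were fitted over all 8 libraries. The step is also part of the climb by which the gene was chosen, so its p-value is not free of that choice. The same test was passed by 2 other members, against 2.32% of all genes called up and 0.912% called down. Per kilobase of exon, Gpnmb went from the bottom of the 10 members, 0.198 CPM in DMSO, to 9.64 CPM at 72 h, above Tfeb at 7.69 CPM and below Mcoln1 at 14.1 CPM.

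Nascent Gpnmb RNA was also higher in all 6 dTAG libraries than in both DMSO libraries. DMSO held 1.96 and 0.988 CPM, from 19 and 13 counts, and 2 h of dTAG held 2.73 and 3.12 CPM. At 6 h the libraries held 3.12 and 3.59 CPM and at 24 h 7.57 and 4.21 CPM. The difference from DMSO was 1.02 ± 0.42 at 2 h (log2, adjusted p = 0.41) and 1.22 ± 0.42 at 6 h (adjusted p = 0.189), both short of the threshold, and 2.02 ± 0.42 at 24 h (adjusted p = 0.0271), which passed. The call at 24 h rested on few counts: without the second DMSO library the change was 1.59 with an adjusted p of 0.105, and without the first 24 h library 1.56 with an adjusted p of 0.106.

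In the RA experiment, which consists of other libraries, Gpnmb rose with depletion and RA together. Before RA it stood at 1.26 and 1.202 CPM in DMSO and at 1.66 and 2.43 CPM in dTAG, a difference of 0.75 ± 0.29 (log2, adjusted p = 0.59) that did not pass. After RA it stood at 0.617 and 0.954 CPM in DMSO and at 10.7 and 10.5 CPM in dTAG, a difference of 3.80 ± 0.25 (adjusted p = 6.05e-10). RA lowered the mean in DMSO without passing the test, with a log2 change of -0.70 ± 0.36 (adjusted p = 0.31), and raised Gpnmb by 2.35 ± 0.20 in dTAG (adjusted p = 2.23e-08). The RA effects in dTAG and in DMSO differed by 3.05 ± 0.42 on the log2 scale (interaction term, adjusted p = 6.38e-06). The depleted RA libraries, at 48 h of dTAG, and the 48 h libraries of the time course, at 13.02 and 14.3 CPM, were of like level, but they come from separate experiments and were not compared by a test.

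**Figure D1:**
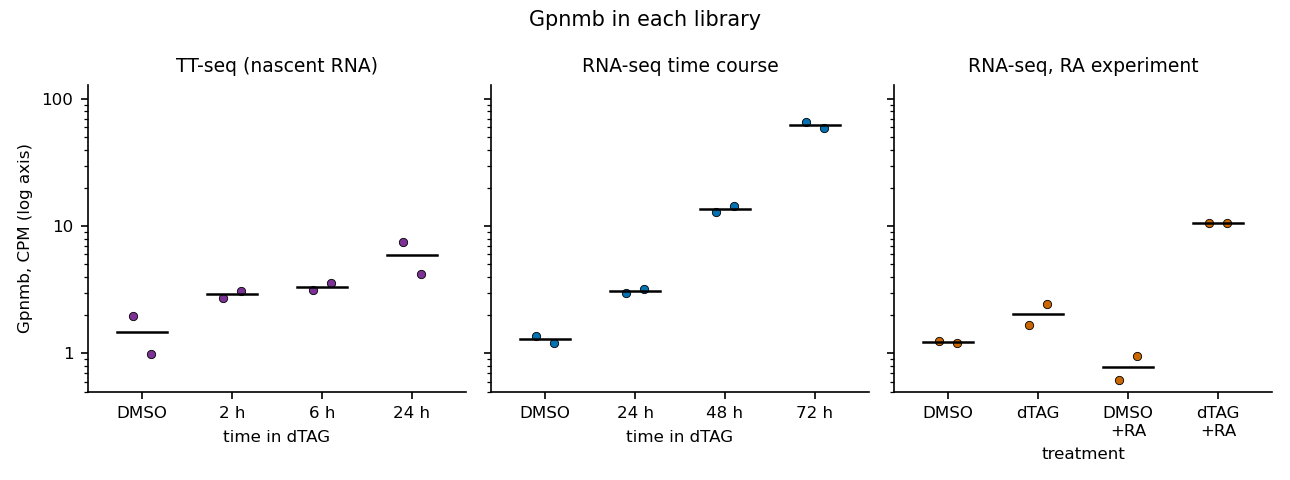
Gpnmb in every library, in CPM on a log axis, for TT-seq, the RNA-seq time course and the RA experiment, with 1 point per library and a line at the mean of each group of 2. The time course climbs from 1.37 and 1.21 CPM in DMSO to 66.4 and 59.3 CPM at 72 h, and the depleted RA libraries at 10.7 and 10.5 CPM stand above the other RA groups.

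During the first hours of depletion the transcription of the other 9 members did not pass the test in either direction. At 2 h none of the 10 members was called (edgeR quasi-likelihood test, adjusted p below 0.05 and a log2 change beyond 0.5), against 0.168% of all genes called up and 2.37% called down. DESeq2 also called none, and 1 member, Gpnmb, had an unadjusted p below 0.05, against 3.84% of all genes higher and 7.55% lower at that cut. The same held at 6 h, again with 0 members called by edgeR or DESeq2, against 0.386% of all genes up and 2.92% down by edgeR. Again 1 member, Gpnmb, lay below an unadjusted 0.05, against 7.04% of all genes higher and 10.5% lower. At 24 h Gpnmb was the 1 member called, against 2.01% up and 4.25% down. Because bulk libraries average over all cells, more RNA per cell and more cells that make it cannot be told apart here or in what follows.

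Tfeb, whose promoter ZFP143 occupied, held 111 and 89.8 CPM of nascent RNA in DMSO, 103 and 77.9 at 2 h, 82.1 and 66.5 at 6 h, then 88.9 and 110 at 24 h. Both 6 h libraries were below both DMSO libraries, and at 2 h and 24 h the groups overlapped. The change at 6 h was -0.43 ± 0.19 (log2, 95% interval -0.86 to 0.004, adjusted p = 0.289). Tfe3 held 49.9 and 41.5 CPM in DMSO, 48.9 and 53.8 at 2 h, 40.9 and 45.3 at 6 h, then 41.3 and 39.7 at 24 h. Neither regulator passed the test at any of these times.

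Of the membrane proteins, nascent Lamp1, the gene of an abundant glycoprotein of the lysosomal membrane, was lower in dTAG than in DMSO in every library, without passing the test. It held 212 and 228 CPM in DMSO, 185 and 208 at 2 h, 176 and 195 at 6 h, then 173 and 201 at 24 h, with a log2 change at 24 h of -0.23 ± 0.13 (adjusted p = 0.343). Mcoln1, which encodes a cation channel that releases lysosomal calcium, held 64.5 and 61.5 CPM in DMSO and 48.6 and 58.9 CPM at 24 h. The cathepsin genes encode lysosomal proteases, Ctsd an aspartic one and Ctsb and Ctsl cysteine ones. Ctsl, with 60.8 and 37.1 CPM in DMSO and 93.3 and 49.9 CPM at 24 h, had overlapping groups and a log2 change of 0.55 ± 0.30 (adjusted p = 0.33). Ctsd and Ctsb, Hexa, which encodes the alpha subunit of beta-hexosaminidase, and Sqstm1, the gene of the autophagy receptor p62, overlapped between DMSO and 24 h. Their log2 changes at 24 h lay between -0.35 ± 0.21 (Sqstm1, adjusted p = 0.377) and -0.07 ± 0.17 (Hexa, adjusted p = 0.862).

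Read against the same DMSO group at every time, the first calls in steady-state RNA among the 9 members other than Gpnmb came at 48 h of dTAG. At 24 h none of them was called by edgeR (glmTreat against a 1.5-fold change, adjusted p below 0.01) or DESeq2, against 2.32% of all genes called up and 3.41% called down. In the test against no change 4 had an unadjusted p below 0.05, 2 of them higher and 2 lower, against 26.1% of all genes higher and 26.8% lower. At 48 h 3 of the 9, Ctsd, Ctsl and Sqstm1, were called up and 0 down by edgeR and by DESeq2, against 10.5% up and 7.71% down. At that time 7 had an unadjusted p below 0.05, all higher, against 34.8% of all genes higher and 34.6% lower. At 72 h 6 of the 9 were called up and 0 down, beside 13.7% up and 12% down over all genes, and DESeq2 called 5, without Mcoln1. The median log2 change of the 9 was 0.05, 0.50 and 0.96 at these 3 times. Over all tested genes it was 0.02, 0.01 and 0.02.

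Sqstm1 held 259 and 251 CPM in DMSO and 256 and 256 CPM at 24 h, then 469 and 474 CPM at 48 h and 682 and 662 CPM at 72 h. It was flat at 24 h and separated from DMSO thereafter. The change at 48 h was 0.89 ± 0.04 (log2, adjusted p = 6.61e-08), and that from 24 h to 48 h was 0.88 ± 0.04 (adjusted p = 7.53e-07). At 72 h the group mean was 2.64 times that of DMSO.

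Ctsd followed the same course among the proteases. Its libraries held 99.3 and 99.8 CPM in DMSO, 101 and 105 CPM at 24 h, 201 and 202 CPM at 48 h, then 259 and 258 CPM at 72 h. The level had doubled by 48 h, with a log2 change of 1.01 ± 0.05 (adjusted p = 1.19e-09), of which 0.97 ± 0.05 fell between 24 h and 48 h (adjusted p = 1.11e-07). Ctsl held 188 and 194 CPM in DMSO, 206 and 208 at 24 h, 327 and 336 CPM at 48 h, then 446 and 455 CPM at 72 h. The groups of Ctsl did not overlap at any time, and the change at 48 h was 0.80 ± 0.04 (adjusted p = 2.86e-05). Ctsb changed least of the 3 proteases, from 289 and 280 CPM in DMSO to 289 and 301 at 24 h, 315 and 310 CPM at 48 h, then 370 and 367 CPM at 72 h. Its libraries at 48 h and 72 h were above both DMSO libraries, but at 72 h the ratio of the means was 1.29 and the gene was not called.

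Hexa and the membrane proteins were level with DMSO or lower at 24 h, without passing the test, and stood above it at 48 h. Hexa held 114 and 119 CPM in DMSO, 94.1 and 94.1 at 24 h, 153 and 161 CPM at 48 h, then 223 and 230 CPM at 72 h. Lamp1 held 701 and 747 CPM in DMSO, 653 and 617 at 24 h, 1016 and 1032 CPM at 48 h, then 1505 and 1422 CPM at 72 h. Mcoln1 held 60.5 and 59.7 CPM in DMSO, 59.5 and 71.4 at 24 h, 93.7 and 95.8 CPM at 48 h, then 106 and 107 CPM at 72 h. For Hexa and Lamp1 the 24 h libraries lay below and the 48 h libraries above both DMSO libraries. At 48 h the 1.5-fold test was not passed by Mcoln1, at 0.66 ± 0.07 (log2, adjusted p = 0.182, but 0.86 and 2.18e-04 with scaling by library size alone), nor by Lamp1, at 0.50 ± 0.04, or Hexa, at 0.43 ± 0.05. From 24 h to 48 h the changes were 0.69 ± 0.04 for Lamp1 (adjusted p = 0.0488) and 0.74 ± 0.05 for Hexa (adjusted p = 0.014), both short of the threshold of 0.01. At 72 h the means stood at 2.02 times DMSO for Lamp1, 1.94 times for Hexa and 1.77 times for Mcoln1, which was called by edgeR and not by DESeq2.

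The regulators Tfeb and Tfe3 had levels near those of DMSO throughout. Tfeb held 48.6 and 47.9 CPM in DMSO, 51.5 and 56.6 at 24 h, 51.7 and 48.6 CPM at 48 h, then 44.7 and 42.5 CPM at 72 h. Tfe3 held 128 and 124 CPM in DMSO, 129 and 130 at 24 h, 129 and 125 CPM at 48 h, then 136 and 133 CPM at 72 h. Neither was called at any time, with log2 changes at 48 h of 0.06 ± 0.07 for Tfeb (95% interval -0.09 to 0.20) and 0.01 ± 0.05 for Tfe3 (95% interval -0.09 to 0.11). These intervals lie within a change of 1.5-fold. With scaling by library size alone, which raised the median change of all genes by 0.13, 0.20 and 0.22 at 24 h, 48 h and 72 h, the change of Tfeb at 72 h turned from -0.15 to 0.07. Under that scaling 2731 genes were called up and 1111 down at 72 h, in place of 1912 and 1677.

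**Figure D2:**
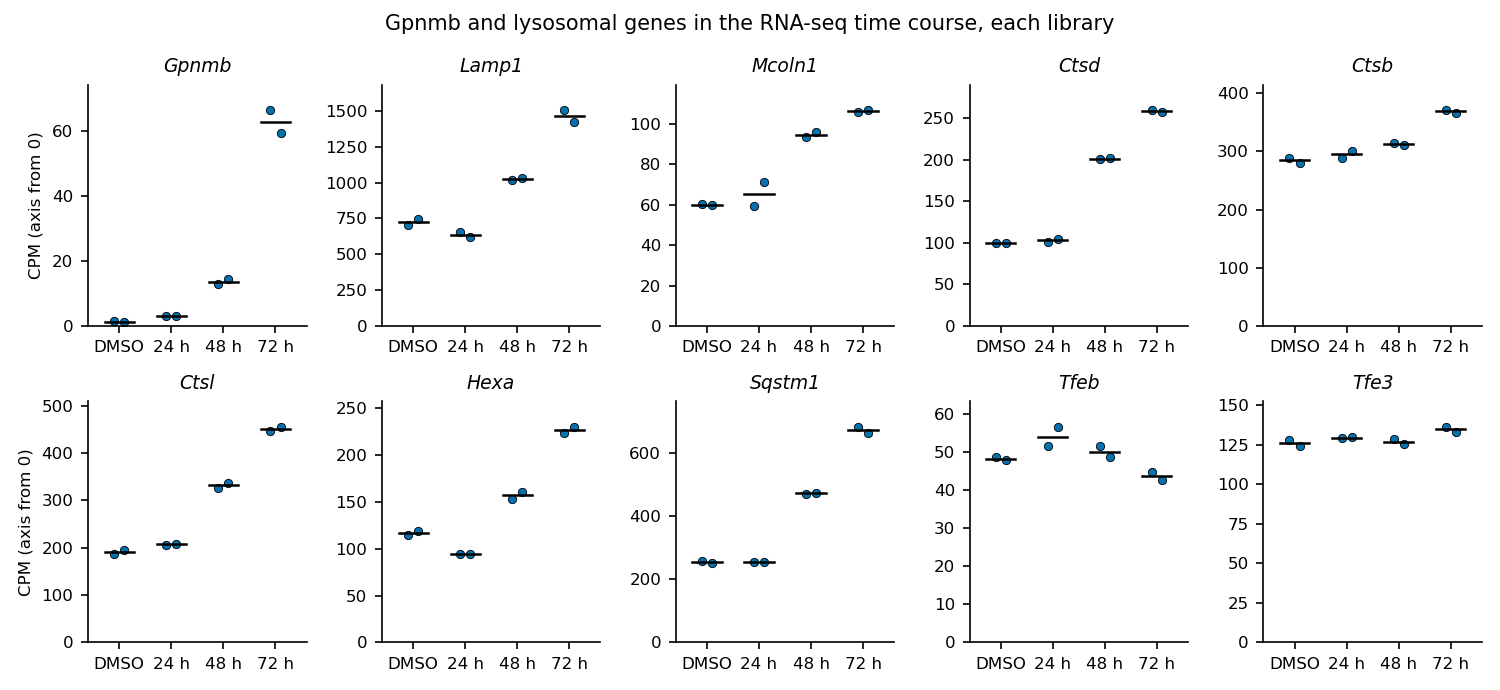
The 10 members in the RNA-seq time course, in CPM on axes that start at 0, for DMSO and 24 h, 48 h and 72 h of dTAG, with 1 point per library and a line at each group mean. Lamp1, Ctsd, Ctsl, Hexa, Sqstm1, Mcoln1 and Gpnmb stand above their 24 h level at 48 h and higher again at 72 h, while Tfe3 stays between 124 and 136 CPM and Tfeb between 42.5 and 56.6 CPM.

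Mitf, the relative of Tfeb and Tfe3, held 77.7 and 85.2 CPM in DMSO, 80.1 and 82.1 at 24 h, 59.3 and 61.9 CPM at 48 h, then 70.2 and 70.4 CPM at 72 h, and was not called. Its promoter was occupied by ZFP143 as well. Tfec, the fourth member of the family, held no counts in any RNA-seq library. Flcn, which encodes folliculin and is itself known as a target of TFEB and TFE3, held 66.4 and 63.4 CPM in DMSO, 57.01 and 61.7 at 24 h, 112 and 112 CPM at 48 h, then 171 and 170 CPM at 72 h. It was lower than DMSO at 24 h and higher from 48 h on, with a log2 change of 0.79 ± 0.06 at 48 h (adjusted p = 6.15e-04) and of 0.92 ± 0.06 from 24 h to 48 h (adjusted p = 1.79e-05).

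Per kilobase of exon, the members spanned a wide range of abundance in DMSO. Lamp1 led with 271 CPM per kb, followed by Sqstm1 at 76.0, Hexa at 58.6, Ctsb at 47.0, Ctsd at 42.4 and Ctsl at 29.4. The regulators lay below, with Tfe3 at 13.6 and Tfeb at 8.51 CPM per kb, then Mcoln1 at 7.96, and Gpnmb was last. Between neighbours in this order the 2 libraries of each gene did not overlap. At 72 h Ctsd, at 110 CPM per kb, had passed Ctsb, at 60.9, and Ctsl, at 69.4, had passed Ctsb too, and Hexa stood at 114.

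Across the 8 time course libraries the members differed in how closely they followed Gpnmb. Pearson's r of log2 CPM with Gpnmb was 0.989 for Ctsl, 0.977 for Sqstm1, 0.970 for Ctsd, 0.961 for Ctsb, 0.958 for Mcoln1, 0.938 for Lamp1 and 0.905 for Hexa. It was 0.712 for Tfe3, over a range of only 0.13 in log2 CPM, and -0.60 for Tfeb. The points share their libraries and fall into 4 time points, so these values describe the course and carry no test.

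RA lowered both regulators, in control and in depleted cells. Tfeb held 88.6 and 100 CPM in DMSO before RA and 16.6 and 14.7 CPM after it, and 73.9 and 71.9 CPM in dTAG before RA and 16.2 and 13.9 CPM after it. Its log2 change with RA was -2.58 ± 0.10 in DMSO (adjusted p = 3.62e-14) and -2.28 ± 0.10 in dTAG (adjusted p = 3.95e-13), and the difference between these of 0.31 ± 0.14 did not pass (95% interval 0.01 to 0.60, adjusted p = 0.0852). Tfe3 held 131 and 135 CPM in DMSO and 58.6 and 65.0 CPM after RA, and 129 and 126 CPM in dTAG and 69.8 and 67.4 CPM after RA. It fell by 1.11 on the log2 scale in DMSO (SE 0.07, adjusted p = 2.12e-07) and by 0.89 in dTAG (SE 0.07, adjusted p = 9.66e-05), and the difference of 0.22 ± 0.10 did not pass (adjusted p = 0.0994). The call of Tfe3 in dTAG was lost without the second depleted RA library, at -0.79 with an adjusted p of 0.0134, and with scaling by library size alone, at -0.50, a scaling that raised the median of all genes by 0.32 for RA in DMSO and 0.39 for RA in dTAG.

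Mitf fell further with RA than Tfeb and Tfe3, from 53.9 and 48.5 CPM to 5.60 and 4.15 CPM in DMSO and from 64.7 and 62.0 CPM to 2.23 and 1.67 CPM in dTAG. The RA effect differed between dTAG and DMSO by -1.66 ± 0.22 on the log2 scale (adjusted p = 4.95e-06), with lower levels in depleted cells after RA and higher ones before it. Flcn went the other way: RA took it from 91.2 and 108 CPM to 58.6 and 55.1 CPM in DMSO and from 68.1 and 63.9 CPM to 126 and 141 CPM in dTAG. Its RA effects differed by 1.82 ± 0.12 (adjusted p = 4.23e-10).

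Before RA no member was called between dTAG and DMSO by edgeR or DESeq2, against 2.74% of all genes called up and 3.66% called down. An unadjusted p below 0.05 was seen for 6 members, 1 higher and 5 lower, against 28.1% of all genes higher and 21.7% lower. Of the 10 log2 changes 9 were negative, with a median of -0.20 against 0.06 over all genes. The second DMSO library held the higher value for 9 of the 10 members, most for Hexa, with 91.6 and 127 CPM. Under scaling by library size alone, which raised the median of all genes by 0.13 here, Mcoln1, Ctsl and Tfe3 turned to 0.04, 0.07 and 0.07.

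After RA 4 members were called higher in dTAG than in DMSO and 0 lower, by edgeR and by DESeq2, against 9.1% of all genes up and 7.36% down. The 4 called were Gpnmb, Ctsl, Hexa and Sqstm1. An unadjusted p below 0.05 was seen for 8 members, all higher, against 32.4% of all genes higher and 31.9% lower. Sqstm1 held 207 and 209 CPM in DMSO with RA and 471 and 460 CPM in dTAG with RA, a difference of 1.16 ± 0.07 (log2, adjusted p = 1.05e-07). Hexa held 79.1 and 70.1 CPM against 203 and 176 CPM, a difference of 1.34 ± 0.11 (adjusted p = 1.00e-06). Ctsl held 261 and 249 CPM against 490 and 458 CPM, a difference of 0.89 ± 0.08 (adjusted p = 4.49e-04). The libraries of these 3 genes did not overlap between DMSO and dTAG after RA, and neither did those of Lamp1, Mcoln1, Ctsd, Ctsb and Tfe3. The share of all genes whose groups did not overlap was not counted, so this is a description and no test. Ctsd at 0.69 ± 0.09 (adjusted p = 0.15), Mcoln1 at 0.64 ± 0.08 (adjusted p = 0.338) and Lamp1 at 0.59 ± 0.08 (adjusted p = 0.624) did not pass the 1.5-fold test, and passed it under scaling by library size alone, at 0.90, 0.84 and 0.80, where the median of all genes rose by 0.21.

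**Figure D3:**
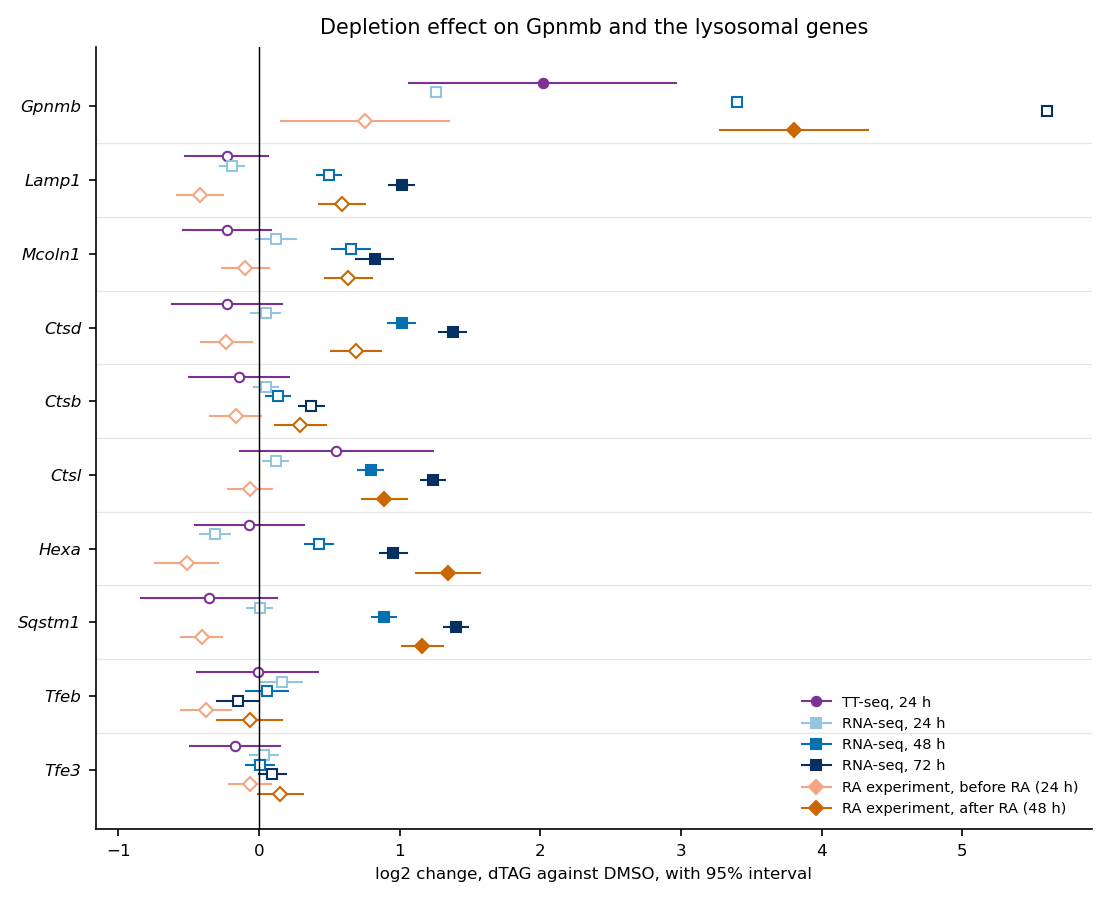
The log2 change in dTAG against DMSO of each member at 24 h in TT-seq, at 24 h, 48 h and 72 h in the time course, and before and after RA, with 95% intervals, drawn for all tested values; filled points were called and open points were not called or, for Gpnmb in the time course, not tested. At 72 h the members run from -0.15 for Tfeb to 5.60 for Gpnmb, and the 24 h values of most lie close to 0.

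In control cells RA called 3 members down and 0 up, against 25.8% of all genes up and 18.1% down. They were Tfeb, Tfe3 and Lamp1. Lamp1 held 1066 and 1264 CPM before RA and 667 and 643 CPM after it, a change of -0.83 ± 0.08 (log2, adjusted p = 0.00142). That call did not hold without the second DMSO library, at -0.71 with an adjusted p of 0.0346, without either library of the DMSO RA group, at -0.80 and -0.75 with adjusted p of 0.0128 and 0.0369, or with scaling by library size alone, at -0.51. In depleted cells RA called 6 members up and 2 down, against 25% of all genes up and 18.5% down. Lamp1 was not among them, with 882 and 862 CPM before RA and 1016 and 959 CPM after it.

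The 6 that rose with RA in dTAG were Gpnmb, Mcoln1, Ctsd, Ctsl, Hexa and Sqstm1. Sqstm1 went from 192 and 205 CPM to 471 and 460 CPM, a change of 1.23 ± 0.07 (log2, adjusted p = 3.78e-09), while in DMSO it went from 252 and 275 CPM to 207 and 209 CPM. Hexa went from 77.2 and 75.4 CPM to 203 and 176 CPM, a change of 1.32 ± 0.11 (adjusted p = 3.38e-07). Both genes were lower in every RA library than in every earlier library of control cells and higher in every RA library of depleted cells. Ctsl went from 211 and 216 CPM to 490 and 458 CPM, a change of 1.15 ± 0.08 (adjusted p = 9.19e-08), against 207 and 240 CPM before and 261 and 249 CPM after RA in DMSO. Ctsd went from 97.7 and 92.04 CPM to 208 and 187 CPM, a change of 1.06 ± 0.09 (adjusted p = 5.18e-06), against 99.6 and 123 CPM before and 123 and 122 CPM after RA in DMSO. In control cells the groups of Ctsd overlapped. Mcoln1 went from 71.4 and 71.1 CPM to 123 and 128 CPM in dTAG, a change of 0.82 ± 0.08 (adjusted p = 0.00192), and from 70.6 and 82.0 CPM to 83.8 and 77.6 CPM in DMSO. Its call in dTAG did not hold without either dTAG library taken before RA, at 0.81 and 0.80 with adjusted p of 0.0162 and 0.0175, without the count filter, at 0.74 with an adjusted p of 0.0286, or by DESeq2, at 0.86 with an adjusted p of 0.0102.

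The signed RA effect, as a log2 change, was higher in depleted than in control cells for 7 members by the interaction term and lower for 0, against 13.7% of all genes up and 18% down (edgeR quasi-likelihood test, adjusted p below 0.05 and a difference beyond 0.5 in log2). The difference was 1.86 ± 0.15 for Hexa (adjusted p = 7.69e-09), 1.57 ± 0.10 for Sqstm1 (adjusted p = 1.81e-10) and 1.01 ± 0.11 for Lamp1 (adjusted p = 3.62e-07), whose change with RA was -0.83 in DMSO and 0.18, not called, in dTAG. It was 0.95 ± 0.11 for Ctsl (adjusted p = 4.49e-07), 0.92 ± 0.12 for Ctsd (adjusted p = 4.22e-06) and 0.73 ± 0.11 for Mcoln1 (adjusted p = 2.24e-05). Gpnmb, given above, was the seventh. Ctsb, at 0.46 ± 0.12 (adjusted p = 0.00458), fell short of the log2 limit. It passed the limit by DESeq2, at 0.52, with the size factors of DESeq2, at 0.52, and with scaling by library size alone, at 0.53. The median difference over the members was 0.94, against -0.07 over all genes.

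**Figure D4:**
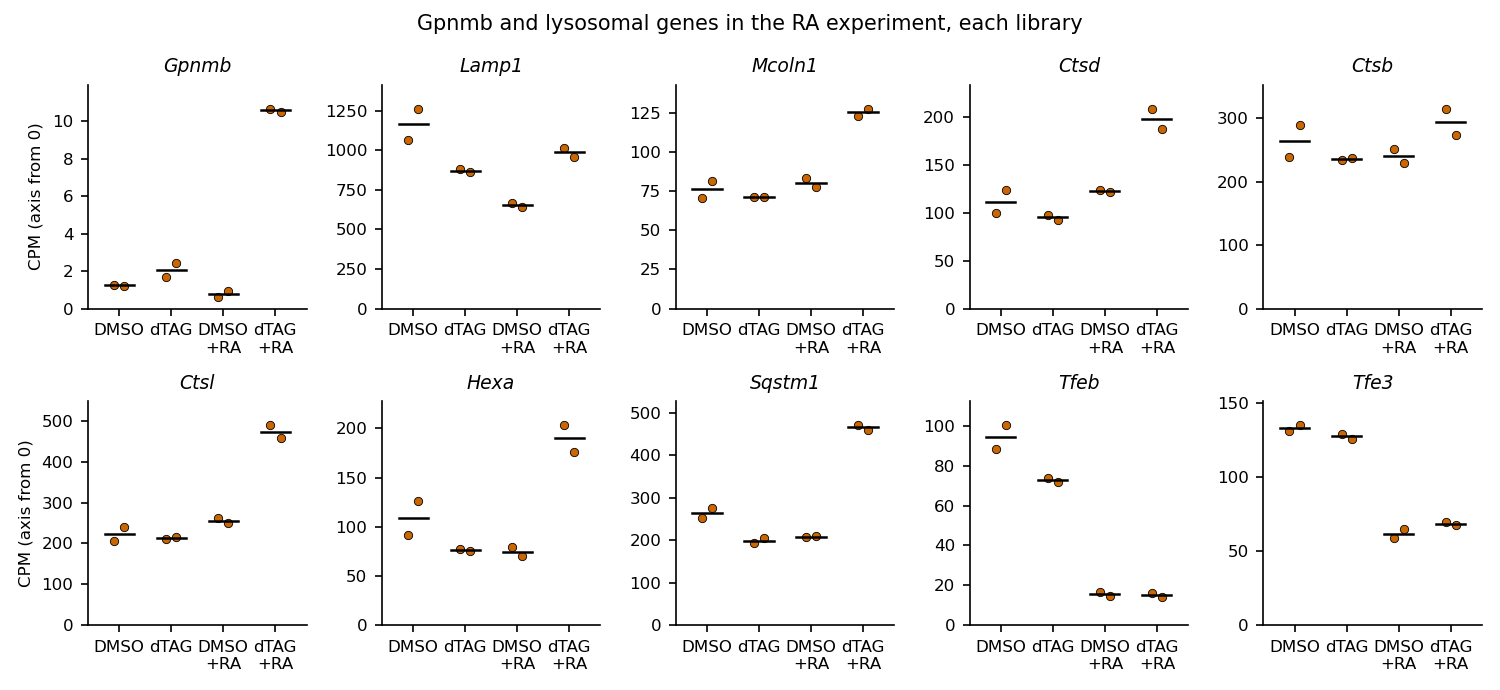
The 10 members in the RA experiment, in CPM on axes that start at 0, for DMSO, DMSO with RA, dTAG and dTAG with RA, with 1 point per library and a line at each group mean. For Gpnmb, Ctsd, Ctsl, Hexa, Sqstm1 and Mcoln1 the dTAG with RA libraries stand above all others, while Tfeb and Tfe3 are low in both RA groups.

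A wider set of 139 further lysosomal and autophagy genes, in 7 lists, put the members beside the rest of the organelle. In nascent RNA, in the fit without a replicate block, few of them were called, all of these lower and at a share near that of all genes, while the fit with the block also called some higher. Of 132 tested, 0 were called up by edgeR and 3, 4 and 5 down at 2 h, 6 h and 24 h. The down calls were 2.27%, 3.03% and 3.79% of the lists, against 2.37%, 2.92% and 4.25% of all genes. At an unadjusted p below 0.05, 5, 8 and 8 list genes were higher and 7, 11 and 16 lower, the higher ones 3.79%, 6.06% and 6.06% of the lists against 3.84%, 7.04% and 10.1% of all genes, and the lower ones 5.3%, 8.33% and 12.1% against 7.55%, 10.5% and 11.7%. DESeq2 called 0, 1 and 1 of the lists up at these times, beside 52, 157 and 460 of all genes, where edgeR called 30, 69 and 359. With the replicate number as a block the list calls were 1, 2 and 3 up and 4, 7 and 8 down, beside 91, 342 and 1000 of all genes up and 658, 976 and 1232 down. All of the genes called down without the block had a ZFP143 peak at their start. Slc38a9, which encodes an amino acid transporter that reports lysosomal arginine to mTORC1, went from 26.9 and 26.5 CPM in DMSO to 6.43 and 5.99 CPM at 2 h, a log2 change of -2.10 ± 0.27 (adjusted p = 0.00472). Ctns, the gene of the lysosomal cystine exporter, went from 23.7 and 19.2 CPM to 6.19 and 5.27 CPM, a change of -1.90 ± 0.27 (adjusted p = 0.00679). Ppp3cb, a catalytic subunit of calcineurin, the phosphatase that acts on TFEB, went from 50.6 and 71.0 CPM to 30.05 and 36.0 CPM, with -0.88 ± 0.19 (adjusted p = 0.0473), a call that DESeq2 size factors or scaling by library size alone took away at adjusted p of 0.0522 and 0.0551. Calcoco1, an autophagy receptor gene, was called at 6 h, with -1.16 ± 0.22 (adjusted p = 0.0263), and at 24 h, and both calls were lost with any 1 of the 4 libraries left out, at adjusted p of 0.0869 to 0.215 and 0.0524 to 0.0801. Tsc2, which encodes a brake on mTORC1, was called at 6 h and 24 h and Cd63, a tetraspanin gene, at 24 h. With either 2 h library left out none of the 2 h calls held, while the changes were of like size, -2.15 and -2.06 for Slc38a9 and -2.01 and -1.79 for Ctns, and the calls over all genes went from 453 to 113 and 114.

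In steady-state RNA 1 of 133 tested list genes was called up at 24 h and 6 were called down, 5 of them with a ZFP143 peak at their start. Among all genes, too, the paper found those lower in RNA-seq to be mostly ZFP143 targets. The shares, 0.752% up and 4.51% down, compare with 2.32% and 3.41% of all genes. Slc38a9 went from 15.9 and 14.6 CPM to 6.20 and 6.37 CPM (-1.27 ± 0.16, adjusted p = 3.84e-04), a call lost by DESeq2 (-1.28, adjusted p = 0.0488). Lamtor2, a Ragulator subunit gene with a ZFP143 peak, went from 58.1 and 63.6 CPM to 25.0 and 21.8 CPM (-1.38 ± 0.09, adjusted p = 1.46e-08) and on to 14.8 and 18.3 CPM at 72 h. Bnip3, a mitophagy receptor gene with no peak, went from 35.4 and 35.2 CPM to 10.3 and 10.1 CPM at 24 h (-1.79 ± 0.11, adjusted p = 1.77e-10). The gene called up at 24 h was Galc, which encodes the enzyme that degrades galactosylceramide and which did have a peak. It went from 11.9 and 10.4 CPM in DMSO to 22.2 and 24.2 CPM at 24 h and 55.0 and 57.4 CPM at 72 h. Its call at 24 h was lost by DESeq2 (1.06, adjusted p = 0.0319) and without the second DMSO library (0.96, adjusted p = 0.0253).

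By 48 h 16 of the 133 list genes, 12%, were called up and 6, 4.51%, down, the first share near the 10.5% and the second below the 7.71% of all genes. By 72 h 34, 25.6%, were called up and 8, 6.02%, down, against 13.7% and 12% of all genes. ZFP143 peaks stood at 3 of the 16 and 4 of the 34, against 14.9% of the genes tested in the time course. Dpp7, a lysosomal dipeptidase gene, went from 36.3 and 34.3 CPM in DMSO to 28.7 and 32.1 CPM at 24 h, 86.0 and 90.6 CPM at 48 h, then 125 and 135 CPM at 72 h, with 1.32 ± 0.07 at 48 h (adjusted p = 6.70e-11). Optn, which encodes the autophagy receptor optineurin, went from 6.23 and 5.33 CPM to 14.5 and 15.9 CPM at 48 h, with 1.40 ± 0.14 (adjusted p = 3.56e-06). The median change over the lists was 0.26 at 48 h and 0.40 at 72 h, against 0.50 and 0.96 for the 9 members other than Gpnmb, and 0.01 and 0.02 over all tested genes. From 24 h to 48 h 12 list genes, 9.02%, were called up and 0 down, against 2.32% and 0.912% of all genes, and at an unadjusted p below 0.05, 76 list genes were higher and 18 lower, 57.1% and 13.5%, against 26.3% of all genes in each direction. DESeq2 called 3 up and 0 down, and its calls over all genes were likewise fewer, 115 up and 59 down in place of 323 and 127. Among the 12 was Ctns, which had fallen first: from 13.8 and 12.9 CPM at 24 h it returned to 28.9 and 28.1 CPM at 48 h (1.09 ± 0.10, adjusted p = 1.13e-04, and 0.0223 by DESeq2, which did not call it), near the 30.1 and 28.6 CPM of DMSO, with dTAG kept on.

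The lists differed in how many of their genes moved at 72 h. V-ATPase subunits, which acidify the lysosome, gave 6 up and 0 down of 17 tested, and other soluble lysosomal proteins gave 11 up and 2 down of 35. Genes of the TFEB and TFE3 control list gave 6 up, which were Flcn, Fnip1, Fnip2, Rragc, Rragd and Tsc1, and 2 down of 20. Proteases gave 2 up of 9 tested and membrane proteins 4 up and 1 down of 21. Autophagy genes gave 4 up and 3 down of 25, with a median of -0.02, and mannose 6-phosphate delivery genes gave 1 up of 6. These counts stand beside the 13.7% and 12% of all genes given above, and the lists were not tested against each other.

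**Figure D5:**
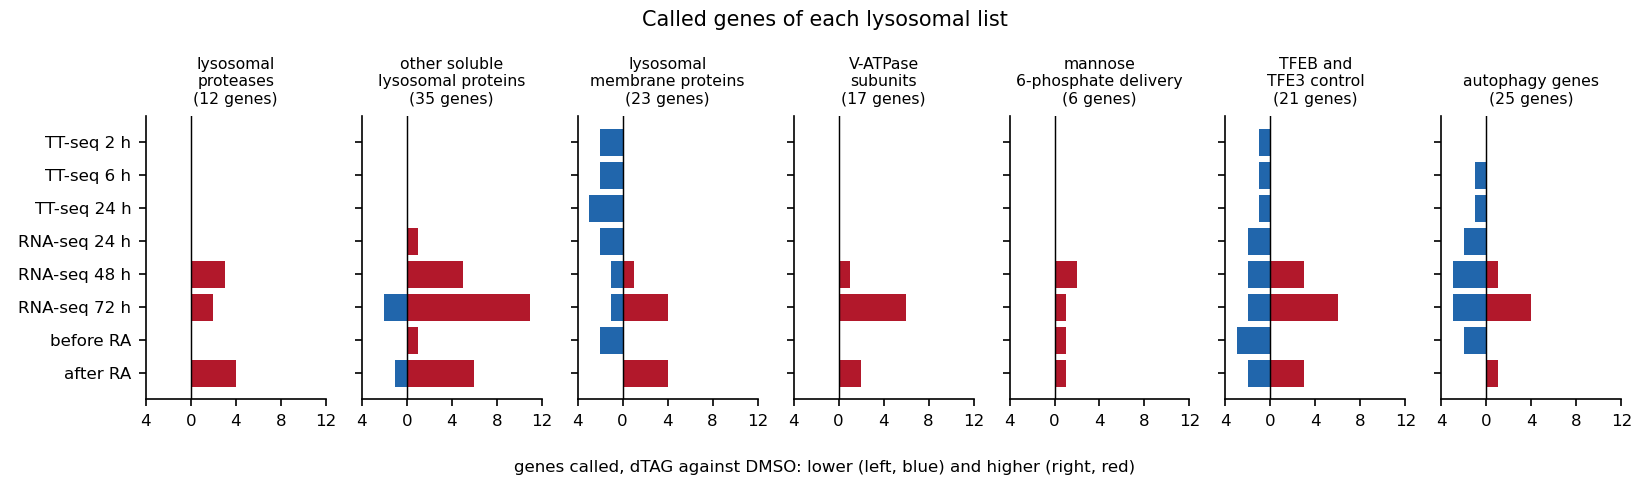
Genes called lower, drawn to the left, and higher, drawn to the right, in dTAG against DMSO in each of the 7 lists, as counts of genes, at the 3 TT-seq times, the 3 time course times and before and after RA. Calls in TT-seq are few and to the left, with 3, 4 and 5 genes in all, and calls at 48 h, 72 h and after RA are mostly to the right, with 16, 34 and 21 genes.

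Before RA 2 list genes, 1.48%, were called up and 7, 5.19%, down in dTAG, against 2.74% and 3.66% of all genes. After RA 21, 15.6%, were called up and 3, 2.22%, down, against 9.1% and 7.36%. Slc38a9 was the extreme before RA, with 11.999 and 12.9 CPM in DMSO and 1.76 and 1.91 CPM in dTAG (-2.75 ± 0.16, adjusted p = 1.50e-10), and after RA it stood at 24.2 and 22.6 CPM in DMSO and 33.9 and 34.7 CPM in dTAG. Tpp1, the gene of a lysosomal tripeptidyl peptidase, held 72.0 and 72.5 CPM in DMSO and 228 and 228 CPM in dTAG after RA, a difference of 1.66 ± 0.07 (adjusted p = 7.18e-12). Gnptg, which encodes a subunit of the enzyme that makes the mannose 6-phosphate tag, held 4.14 and 5.31 CPM against 17.03 and 15.1 CPM (1.79 ± 0.15, adjusted p = 1.43e-07). Gm2a, the gene of the GM2 activator with which hexosaminidase A works, was among the 3 lower in dTAG after RA, with 101 and 108 CPM against 52.4 and 46.2 CPM (-1.08 ± 0.10, adjusted p = 8.58e-05), opposite to Hexa. RA called 29 list genes up and 27 down in DMSO, 21.5% and 20% against 25.8% and 18.1% of all genes, and 40 up and 9 down in dTAG, 29.6% and 6.67% against 25% and 18.5%. The interaction term called 48 up and 10 down of 135, 35.6% and 7.41%, against 13.7% and 18% of all genes.

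Markers of other cell types were read beside the members because Gpnmb marks macrophages and pigment cells. Of 10 macrophage markers 2 were tested in the time course and 1 in the RA experiment. C1qa held no counts in either experiment and Ptprc none in the time course. Their summed level ran from 16.9 to 16.99 CPM in DMSO and from 11.02 to 15.5 CPM at 72 h, and after RA from 4.495 to 6.30 CPM in DMSO and from 13.6 to 14.3 CPM in dTAG, most of it Cd68, a lysosomal membrane protein gene. Cd68, the 1 tested in the RA experiment, was called up in dTAG after RA (log2 change 1.44) and by the interaction term (1.83). Of 8 melanocyte markers 3 were tested, Tyr and Dct held no counts in the time course, and the sum, mostly Mitf, ran from 118 to 124 CPM in DMSO and from 107 to 111 CPM at 72 h. Mlana within that list rose from 1.28 and 1.14 CPM to 3.88 and 4.22 CPM at 72 h (1.75 ± 0.29, adjusted p = 2.52e-04). After RA the melanocyte markers summed to between 11.3 and 13.05 CPM in DMSO and between 18.9 and 19.2 CPM in dTAG, beside the rise of Gpnmb, with Tyr at no counts. Of the 3 tested, Pmel (5.51 and 5.31 against 12.1 and 12.04 CPM, adjusted p = 3.74e-04) and Mlana (1.76 and 1.498 against 4.66 and 4.93 CPM, adjusted p = 8.28e-04) were called up in dTAG there and Mitf down. The part of these genes in the result for Gpnmb was not tested.

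Some markers of the state of the stem cells moved over the same time. The 8 embryonic stem cell markers summed to between 6506 and 6710 CPM in DMSO and between 4207 and 4256 CPM at 72 h. At 72 h 3 of the 8 were called down and 0 up, against 12% of all genes down and 13.7% up. Dppa5a went from 1138 and 1227 CPM to 324 and 333 CPM, while Klf4 went from 189 and 190 CPM to 205.5 and 208.5 CPM. In control cells the markers summed to between 7073 and 7214 CPM before RA and 1363 and 1944 CPM after it. In depleted cells the sum after RA was like that, between 1444 and 1736 CPM, but its makeup differed. Between dTAG and DMSO after RA, 3 of the 8 were called up and 1 down, with a median log2 change of 0.63, and the interaction term called 6 up and 1 down, with a median of 0.79, beside the 7 lysosomal members. Esrrb, an orphan nuclear receptor gene, held 85.2 and 49.6 CPM in DMSO with RA and 405 and 335 CPM in dTAG with RA (2.44 ± 0.15, adjusted p = 3.82e-10), and Dppa5a held 943 and 689 CPM against 225 and 155 CPM (-2.10 ± 0.13, adjusted p = 1.09e-09). The 10 primitive endoderm markers, of which 6 were tested, summed to between 109 and 118 CPM in DMSO and between 143 and 154 CPM at 72 h, and 3 of them, Sox17, Pdgfra and Dab2, were called up there. In DMSO Sox17 held 0.183 and 0.142 CPM and Pdgfra 0.458 and 0.498 CPM. Both passed the count filter only through dTAG libraries, so their calls up are not free of the filter. Lama1, at 133.5 and 123.4 CPM at 72 h and not called, made up most of the summed level. The median log2 change of the 6 tested was 2.18, which carries the same limit of the filter. The 8 neural markers, of which 4 were tested, summed to between 224 and 235 CPM in DMSO and between 149 and 156 CPM at 72 h, with Nes and Tubb3 called down, while Sox1 rose from 2.11 and 1.92 CPM to 10.7 and 8.92 CPM (2.27 ± 0.20, adjusted p = 5.25e-09). In the RA experiment 9 of the primitive endoderm markers and 5 of the neural markers were tested. After RA 1 of the former was called higher in dTAG than in DMSO, Gata6, and 1 lower, Dab2, and the interaction term called 0 up and 3 down. Of the neural markers 0 were called higher after RA and 2 lower, Pax6 and Nes, and the interaction term called 2 up and 3 down. Pax6, a transcription factor gene of neural progenitors, held 49.0 and 54.6 CPM in DMSO with RA and 12.3 and 14.04 CPM in dTAG with RA (-1.97 ± 0.12, adjusted p = 9.11e-10). The part of these shifts in the levels of the lysosomal genes was not tested.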

How the data were processed

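The 3 count tables that the authors deposited hold raw counts per gene, per library, made by mapping reads with STAR to mm10 with GENCODE vM25. For TT-seq the authors removed duplicates, split reads by strand and counted over whole genes with HTSeq. The RNA-seq counts come from the counting mode of STAR. The authors' ZFP143 peak list, from 1 sample against input, gives a fold enrichment, a ratio, and a −log10 q for each peak. The CTCF peaks and 4C contacts were not needed and were not used here.

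Of 55401 gene identifiers 55141 matched the GENCODE vM21 annotation, which gave names, positions and lengths. The prior count was 2. Counts were tested in R 4.3.3 by edgeR 4.0.16, which uses limma 3.58.1, with TMM scaling and no replicate block, over genes that exceeded 10 counts in 4 or more libraries out of 8. TT-seq and the interaction used the quasi-likelihood test (adjusted p below 0.05, log2 change beyond 0.5) and RNA-seq contrasts used glmTreat (1.5-fold, adjusted p below 0.01), 2-sided, in place of the DESeq2 test of the study, with Benjamini-Hochberg adjustment over all tested genes. Alternatives were other scalings, no filter, DESeq2 1.42.0, the thresholds of the other assay, a replicate block and each library left out. Scripts were tested on simulated counts. No libraries were identical, and replicate pairs differed by more than counting noise (chi-square per degree of freedom 1.57 to 28.2). The highest value belonged to the DMSO pair of the time course, whose dTAG pairs lay at 1.57 to 1.93. P-values measure the spread between 2 libraries a group.

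The members and lists were chosen with earlier results of these data known. Named genes are all members, Zfp143, Mitf, Tfec and Flcn, per contrast the 3 called list genes with the greatest change in each direction among those with a mean count of at least 100 and groups that do not overlap, and the 5 genes most like Gpnmb. Other names were added after values were seen.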

Additional observations from a re-analysis of the deposited data

Results flagged for a closer look

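Whether the effect of RA differed between depleted and control cells was tested by an interaction term in edgeR, adjusted over all genes. The genes below are given because they passed it. Of the members Tfeb, Tfe3 and Ctsb did not pass. The log2 change with RA in dTAG, less the one in DMSO, was 3.05 for Gpnmb (adjusted p = 6.38e-06), 1.86 for Hexa (7.69e-09), 1.57 for Sqstm1 (1.81e-10), 1.01 for Lamp1 (3.62e-07), 0.95 for Ctsl (4.49e-07), 0.92 for Ctsd (4.22e-06) and 0.73 for Mcoln1 (2.24e-05). Among regulators it was 1.82 for Flcn (4.23e-10) and -1.66 for Mitf (4.95e-06). Among the list genes it was 3.30 for Slc38a9 (4.49e-11), 2.7 for Ctns (2.13e-11) and 2.24 for Dpp7 (4.54e-11), and it was -1.12 for Sort1 (2.17e-07) and -1.10 for Arsb (0.00331). RA in dTAG also spans the second day of depletion, and the share of that day in these differences was not tested. Groups of 2 libraries are too small to single out a library.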

How the results depend on the processing

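With 2 libraries a group, nascent RNA limits small changes most. Of the members' log2 changes under the other settings, 639 kept direction and side of the threshold, 22 passed it newly, 5 lost it, 13 changed sign and 1, Gpnmb at 72 h, moved from 5.60 to 5.81 by library size alone. The cause was not tested. Whether equal replicate numbers mark a shared culture is not given, and deviations of same-numbered libraries correlated at 0.19 to 0.63 in TT-seq, -0.04 to 0.06 in the time course and -0.10 to 0.13 in the RA experiment, over 2 pairs.

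In TT-seq the list genes called numbered 6 at 2 h, 9 at 6 h and 11 at 24 h without a filter, in place of 3, 4 and 5, and all genes called numbered 936, 1318 and 2203 in place of 453, 591 and 1119. With the replicate block the list genes numbered 5, 9 and 11 and all genes 749, 1318 and 2232, and DESeq2 called 7 at 6 h and 8 at 24 h, with 765 and 1272 of all genes. Without a filter 2 members were called at 24 h, Gpnmb and Ctsl. In the time course 1 member lay past the TT-seq thresholds at 24 h, Gpnmb, for which this is no test. These thresholds called 7 members from 24 h to 48 h, and 23, 43, 68 and 33 list genes at 24 h, 48 h, 72 h and from 24 h to 48 h, in place of 7, 22, 42 and 12, with 2778, 5296, 6464 and 2459 of all genes in place of 798, 2529, 3589 and 450. DESeq2 called 4, 14 and 3 list genes at 24 h, 48 h and from 24 h to 48 h, with 437, 1509 and 174 of all genes. Library size alone called 35 list genes at 48 h, with 2043 of all genes up and 698 down in place of 1456 and 1073, and 6 members from 24 h to 48 h, with 411 and 94 in place of 323 and 127. In the RA experiment the TT-seq thresholds called 2 members before RA and 7 after it, and 27 list genes before, 56 after and 78 for RA in dTAG, in place of 9, 24 and 49, with 3644, 6299 and 10089 of all genes in place of 1019, 2620 and 6919. Library size alone called 7 members and 37 list genes after RA, with 2084 of all genes up and 763 down in place of 1449 and 1171.

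The signs that changed belonged to changes near 0 that were not called. By library size alone these were Tfeb in TT-seq at 24 h (0.05), at 72 h (0.07) and after RA (0.14), Tfe3 from 24 h to 48 h (0.04) and before RA (0.07), Mcoln1 (0.04) and Ctsl (0.07) before RA, and Ctsb for RA in DMSO (0.18). Tfeb in TT-seq at 24 h was 0.01 with the replicate block. Sqstm1 at 24 h of RNA-seq was -0.0044 with the size factors of DESeq2, -0.01 without a filter and -0.0043 by DESeq2, and Tfe3 at 48 h was -0.03 without a filter.

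Leaving out 1 library at a time gave 0 to 3 list genes at 2 h and at 6 h and 1 to 3 at 24 h in TT-seq, and 6 to 9 from 24 h to 48 h. Members called in TT-seq at 24 h ranged from 0 to 1. Sign changes occurred in TT-seq at 2 h for Mcoln1 (-0.11 to 0.05), Ctsd (-0.06 to 0.33), Ctsl (-0.02 to 0.67), Sqstm1 (-0.34 to 0.01) and Tfeb (-0.36 to 0.03), at 6 h for Ctsd (-0.23 to 0.16) and Tfe3 (-0.20 to 0.05), and at 24 h for Ctsb (-0.30 to 0.02), Hexa (-0.26 to 0.18) and Tfeb (-0.16 to 0.15). In RNA-seq they occurred for Mcoln1 (-0.01 to 0.25) and Sqstm1 (-0.02 to 0.03) at 24 h, Tfe3 at 48 h (-0.02 to 0.03), Mcoln1 (-0.20 to 0.02) and Ctsl (-0.17 to 0.05) before RA, Tfeb after RA (-0.14 to 0.06), and Mcoln1 (-0.03 to 0.19) and Ctsd (-0.02 to 0.29) for RA in DMSO.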

Other observations

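The 5 genes whose course over the 8 time course libraries was most like that of Gpnmb, of 400 genes with enough counts and range, were Prex2, Dazl, Nrip3, Anxa5 and Cyp1a1, with Pearson's r of log2 CPM from 0.996 to 0.993. None of them is a lysosomal gene of the lists. They were chosen by likeness in the time course and are compared there no further. In the RA experiment they parted. Cyp1a1, which encodes a xenobiotic-metabolising cytochrome P450, held 2.52 and 1.66 CPM in DMSO, 2.03 and 3.75 CPM in DMSO with RA, 4.25 and 3.78 CPM in dTAG and 145 and 185 CPM in dTAG with RA, and its RA effects differed by 4.99 ± 0.38 on the log2 scale (adjusted p = 2.61e-09). Nrip3 was like it on a smaller scale, with a difference of 1.53 ± 0.37 (adjusted p = 0.00212). Anxa5 rose with RA in both conditions, to 39.7 and 49.7 CPM in DMSO and 39.7 and 33.6 CPM in dTAG, and its RA effects differed by -0.21 ± 0.19 (adjusted p = 0.398). Dazl, a germ cell gene, was higher in dTAG before RA (1.30 ± 0.09, adjusted p = 6.26e-07) and after it (1.70 ± 0.07, adjusted p = 1.08e-11).

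Prex2 was higher in dTAG after RA (0.99 ± 0.10, adjusted p = 3.11e-04), and its RA effects differed by 0.19 ± 0.14 (adjusted p = 0.299).

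Slc38a9 and Ctns, which fell first, were not the lowest libraries once RA had been given with dTAG kept on. Slc38a9 then stood at 33.9 and 34.7 CPM, above all other libraries of that experiment, and Ctns at 31.8 and 34.8 CPM, between the DMSO levels before RA (39.5 and 39.7 CPM) and after it (18.1 and 18.5 CPM). In nascent RNA Ctns was still low at 24 h, with 9.04 and 6.70 CPM against 23.7 and 19.2 CPM in DMSO, and later nascent RNA was not analysed here.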
